A study of Homo sapiens with 6 samples.

Results

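Kidney organoids with 2 disrupted copies of PKHD1 were compared with organoids that kept 1 copy, and genes were described whose difference had one sign in all 3 cultures. Of 16364 genes tested, 3406 had one sign in all 3 pairs of arrays. In PKHD1-/-, 1915 were higher (11.7% of the genes tested) and 1491 were lower (9.11%). More genes were higher in the flow culture alone (18.4%) or lower in it alone (15.6%) than had either one-sign pattern. The remaining patterns of mixed signs held from 8.62% to 14.7% of genes. The one-sign patterns thus did not stand out by number, and their count is not evidence of a genotype effect. The organoids were grown from H9, an established line of human embryonic stem cells, and were collected at day 35. The PKHD1-/- arrays came from clone C51 and the PKHD1+/- arrays from clone C9, so that 1 clone stood for each genotype and a difference between genotypes cannot be told apart from a difference between clones. Each genotype was grown in 3 ways. Flow organoids rested on a gelbrin matrix and received medium at 4.27 ml/min from day 15. Static organoids, labelled ECM, rested on the matrix without flow. Forskolin organoids received 20 µM forskolin, which activates adenylyl cyclase and so raises cyclic AMP, from day 14, and a matrix is not mentioned for them. Messenger RNA was read on 6 one-colour oligonucleotide arrays, 1 for each genotype and culture, and no wild-type organoids were analysed here.

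PKHD1 encodes fibrocystin, a large membrane protein of the primary cilium in tubule and bile duct cells. Loss of both copies causes autosomal recessive polycystic kidney disease, in which collecting ducts widen and the liver becomes fibrotic. People with 1 disrupted copy usually keep kidney function. Stem cell-derived kidney organoids hold nephron and stromal cells, and commonly also cells outside the kidney lineage, such as muscle and neuron-like cells. In such bulk RNA, fewer cells of a type and less RNA per cell cannot be told apart.

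All levels below are normalized log2 intensities, where 1 unit is a doubling of brightness after background correction, and values are given in the order flow, static, forskolin. PKHD1 itself read 7.37, 7.35 and 7.33 in PKHD1-/- organoids, against 7.41, 7.49 and 7.24 in PKHD1+/- organoids. The levels overlapped, and the difference of -0.03 ± 0.07 (limma's moderated SE, n = 3 pairs) had a negative sign in 2 of 3 pairs. The gene has 2 probes, which differed by -0.05, -0.37 and -0.04 for the first and by -0.03, 0.09 and 0.23 for the second. The position of the edit relative to the probes is not given in the labels, so the array does not check the genotypes. Of kidney markers measured, 19 of 19 podocyte genes, 22 of 24 proximal tubule genes, 18 of 25 distal tubule and collecting duct genes and 20 of 21 nephron progenitor genes lay above background on all 6 arrays. This was also true of 14739 of all 17446 genes measured and of most muscle and neuron markers, so the counts do not set kidney markers apart.

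The PKHD1-/- array was the dimmer one in each pair. The median probe lay 39.7, 33.6 and 16.5 intensity units above the blank spots in PKHD1-/- organoids, against 58.3, 37.2 and 21.2 units in PKHD1+/- organoids. Quantile normalization sets the distributions equal, and the part of brightness in the results was not tested. Both arrays of each pair carry 1 date in the deposited files, with the forskolin pair on another date than the flow and static pairs. Any 2 arrays correlated across genes at between 0.922 and 0.983, and within pairs they were 0.978 (flow), 0.983 (static) and 0.978 (forskolin).

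No gene passed the test for genotype. Limma, with culture as a block, called 0 of 16364 genes (0%) at an adjusted p of 0.05, and 528 genes had an unadjusted p under 0.05, of which 316 were higher and 212 lower in PKHD1-/-. All 528 had one sign in all 3 pairs. This had to be so, because with 3 pairs a gene of mixed signs cannot reach that p in this test. Every gene named below therefore has an adjusted p of 1.00 by limma, and its values describe these 6 arrays. The lowest unadjusted p, 0.000198, belonged to GUCY1A1. The split between higher and lower depends on scaling: with each array set to its 75th percentile in place of quantile normalization, 5989 genes were higher and 541 lower in all 3 pairs, and 91.7% of one-sign genes were higher, against 56.2% with quantile normalization. That scaling shifted the median of all genes by 0.09.

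Most one-sign genes differed little. A difference over 0.1 in every pair was seen for 329 higher and 238 lower genes, and one over 0.25 for 40 higher and 35 lower genes. Past 0.5 there were 9 higher genes (CTSK, IL17B, KLHL41, KREMEN2, MAGEA4, MAGEA8, MYH3, OGN and TNNT1) and 2 lower genes (GUCY1A1 and IGFBP7). Past 0.75 only IL17B and GUCY1A1 were left among the genes tested, and past 1 only GUCY1A1. In a stricter reading, all 3 PKHD1-/- arrays lay above all 3 PKHD1+/- arrays for 339 genes (2.07% of those tested) and below them for 269 genes (1.64%). The 20 genes in each direction with the largest smallest difference are described below. Of these, 4 higher and 4 lower genes had levels that did not overlap between genotypes, and all 40 kept one sign without background correction, with an offset of 16, with 75th percentile scaling, in the authors' value table and with the brightest probe of each gene. Leaving out a pair or changing the background filter cannot change the sign of genes chosen in this way.

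**Figure D1:**
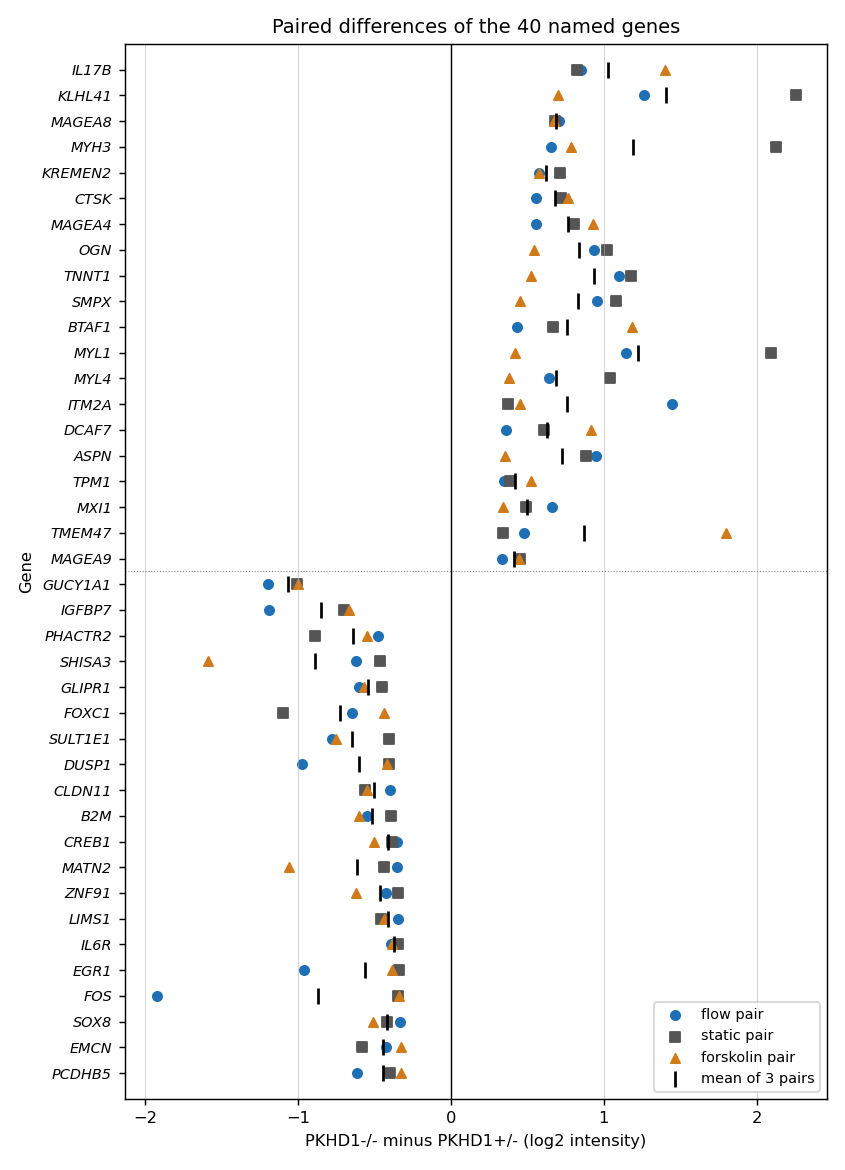
Difference between PKHD1-/- and PKHD1+/- organoids (log2 intensity, x axis) for the 20 higher and 20 lower named genes (rows), with 1 symbol per culture pair and a tick at the mean of 3 pairs. The muscle genes KLHL41, MYH3 and MYL1 reach past 2 in the static pair, while MAGEA8, LIMS1 and IL6R have nearly the same value in each culture.

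Genes of striated muscle made up the largest group of higher named genes. KLHL41, a protein that stabilises sarcomere thin filaments, read 11.26, 9.21 and 12.11 in PKHD1-/- organoids, against 10.00, 6.95 and 11.42 in PKHD1+/- organoids. MYH3, the myosin heavy chain of embryonic muscle, read 12.28, 9.72 and 14.52 in PKHD1-/- organoids, against 11.62, 7.60 and 13.73 in PKHD1+/- organoids. Both were higher in PKHD1-/- in every culture, but culture moved them more than genotype did, so the 2 sets of arrays overlapped. The mean differences were 1.40 ± 0.34 for KLHL41 and 1.19 ± 0.36 for MYH3. The slow skeletal troponin TNNT1 differed by 1.10, 1.18 and 0.53, and the muscle protein SMPX, encoded on the X chromosome, by 0.95, 1.08 and 0.45. The myosin light chains MYL1 and MYL4 differed by 1.15, 2.10 and 0.42 and by 0.64, 1.04 and 0.38. TPM1, a tropomyosin that winds along actin filaments and is not restricted to striated muscle, differed by 0.35, 0.39 and 0.52. For KLHL41, MYH3, TNNT1, SMPX, MYL1 and MYL4 the largest difference was in static culture, where their levels were lowest.

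Of 30 tested markers of skeletal and heart muscle, 15 were higher in all 3 pairs and 1, TNNI1, was lower, against 11.7% and 9.11% of all genes tested. The median difference was 0.27 (0.33 in the flow pair, 0.63 in the static pair and 0.14 in the forskolin pair), against -0.0005 over all genes tested, and 28 of the 30 means were positive. The median stayed positive under all 10 other settings, from 0.17 to 0.49. No member passed the test. Of the 30 measured, 24 lay above background on all 6 arrays and 0 on none. Summed over the list, linear intensity was 44432, 12159 and 121558 in PKHD1-/- organoids, against 28306, 5036 and 108041 in PKHD1+/- organoids. The sum was thus higher in PKHD1-/- in each pair and its ranges overlapped between genotypes, since the forskolin arrays had the most and the static arrays the least in both. How far a different number of muscle cells accounts for these values was not tested.

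Transcription factors that set muscle fate were counted separately from the sarcomere genes. Of 14 tested, 1 was higher in all 3 pairs and 2 were lower, against 11.7% and 9.11% of all genes. The list's median difference was 0.02. The higher one was MEF2D, a factor that drives muscle and neuronal genes, which read 7.20 on all 3 PKHD1-/- arrays, against 6.97, 6.95 and 6.88 in PKHD1+/- organoids. Its levels did not overlap, and its difference was 0.27 ± 0.05. The lower ones were MEF2A at -0.07 and TBX1, a T-box factor of head muscle, at -0.05. TBX1 was dim, at 5.93 or less on every array.

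Proteins of the extracellular matrix also stood among the higher genes. OGN, a small leucine-rich proteoglycan also called osteoglycin, read 11.78, 10.64 and 10.60 in PKHD1-/- organoids, against 10.84, 9.62 and 10.05 in PKHD1+/- organoids. ASPN, a related proteoglycan that binds collagen and TGF-beta, differed by 0.95, 0.88 and 0.35. CTSK, the collagen-degrading protease cathepsin K, read 9.24, 8.55 and 8.67 in PKHD1-/- organoids, against 8.68, 7.83 and 7.91 in PKHD1+/- organoids. For CTSK only the PKHD1+/- flow array reached into the range of the PKHD1-/- arrays. OGN had a mean difference of 0.83 ± 0.12 and CTSK one of 0.68 ± 0.07. In the kidney stroma and fibroblast list, which holds OGN, 2 of 27 genes were higher and 2 lower in all 3 pairs. In the cartilage and bone list, which also holds it, 3 of 23 were higher and 1, SPP1 at -0.50, lower. ADAMTS5, which cleaves cartilage proteoglycans, differed by 0.24, 0.34 and 0.09 without overlap. CTSB, another lysosomal cathepsin, and MMP7, a protease of epithelial cells, stood at -0.15 and -0.14. Among 31 matrix proteases and their inhibitors tested, 4 were higher and 5 lower in all 3 pairs, against 11.7% and 9.11% of all genes. The list's median was -0.04.

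IL17B, a cytokine of the interleukin-17 family, had the largest smallest difference of all higher genes. It read 8.41, 6.98 and 10.52 in PKHD1-/- organoids, against 7.56, 6.16 and 9.12 in PKHD1+/- organoids. The forskolin arrays were highest and the static arrays lowest in both genotypes, and the difference was 1.02 ± 0.15. Of 34 chemokines and cytokines tested, 1 (IL17B) was higher and 6 lower in all 3 pairs, against 11.7% and 9.11% of all genes. The lower ones included TNFSF10, the death ligand TRAIL, at -0.25, and IL33, an alarmin cytokine, at -0.20. IL33 lay above background on 5 of the 6 arrays. The receptor gene IL6R, which binds interleukin-6, read 6.65, 6.66 and 6.70 in PKHD1-/- organoids, against 7.05, 7.01 and 7.09 in PKHD1+/- organoids. Its levels did not overlap and hardly varied with culture, with a difference of -0.38 ± 0.05.

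**Figure D2:**
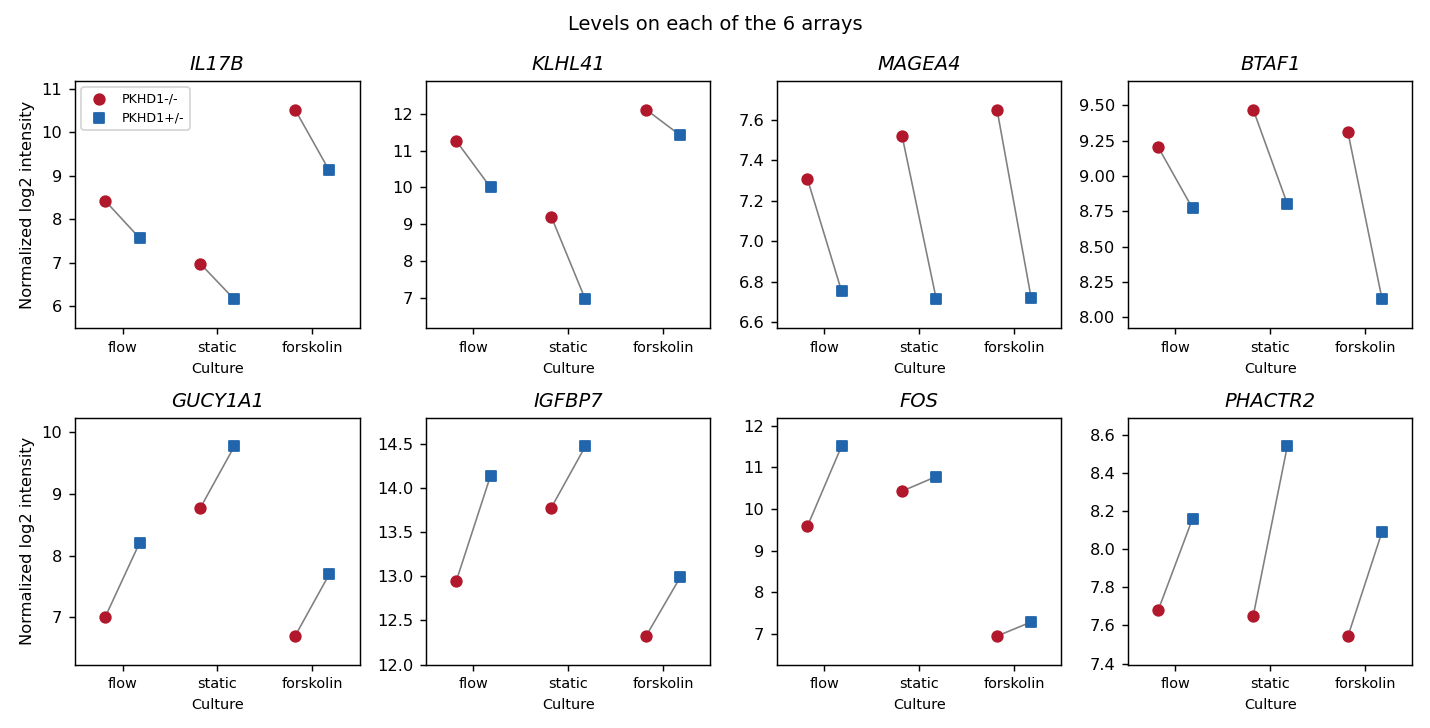
Normalized log2 intensity (y axis, its own scale in each panel) of 8 named genes on each of the 6 arrays, by culture (x axis), with PKHD1-/- as circles and PKHD1+/- as squares joined within a culture. MAGEA4, BTAF1 and PHACTR2 keep the genotypes apart over all arrays, while IL17B, KLHL41, GUCY1A1, IGFBP7 and FOS vary more between cultures than between genotypes.

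Cancer-testis antigens of the X chromosome, which adult tissues outside the germ line keep largely silent, formed a further group. MAGEA4 read 7.31, 7.52 and 7.65 in PKHD1-/- organoids, against 6.75, 6.71 and 6.72 in PKHD1+/- organoids. MAGEA8 read 6.75, 6.76 and 6.92 in PKHD1-/- organoids, against 6.04, 6.08 and 6.25 in PKHD1+/- organoids. For both genes every PKHD1-/- array lay above every PKHD1+/- array, and the gaps of 0.55 and 0.51 between the nearest arrays were the widest of the higher genes above background on all 3 PKHD1-/- arrays, placeholder names aside. MAGEA9 differed by 0.33, 0.45 and 0.45, also without overlap. MAGEA1 read 6.54, 6.62 and 6.79 in PKHD1-/- organoids, against 6.28, 5.77 and 5.72 in PKHD1+/- organoids, and it lay above background on 4 of the 6 arrays. Of 22 such antigens tested, 9 were higher in all 3 pairs and 1, CTAG2, was lower, against 11.7% and 9.11% of all genes. The list's median was 0.02, so most members differed little. That median stayed positive under all 10 other settings, from 0.02 to 0.20. These settings say little about so small a median, since 75th percentile scaling alone moved the median of all genes to 0.09. Genes of the MAGEA family are alike in sequence, the probe sequences were not used here, and signal shared between members cannot be told apart.

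The 250 bases before the annotated start of MAGEA8, MAGEA4 and MAGEA9 are shown because these are the MAGEA genes among the 20 higher named genes. MAGEA1 also did not overlap between genotypes, but it is not among those 20 and is not shown. The sequences are from RefSeq (GRCh38.p14), written 5′ to 3′ on the strand of the gene, and MAGEA4 has 5 annotated starts of which the first in the table is given. Capitals mark the longest run that all 7 windows of the 3 genes share.
MAGEA8 (chrX:149880933-149881182, plus strand): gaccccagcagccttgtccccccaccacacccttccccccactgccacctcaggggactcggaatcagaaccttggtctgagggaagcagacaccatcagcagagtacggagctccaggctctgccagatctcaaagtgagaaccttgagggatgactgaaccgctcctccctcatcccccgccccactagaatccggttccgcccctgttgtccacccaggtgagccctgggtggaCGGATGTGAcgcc
MAGEA4 (chrX:151912224-151912473, plus strand): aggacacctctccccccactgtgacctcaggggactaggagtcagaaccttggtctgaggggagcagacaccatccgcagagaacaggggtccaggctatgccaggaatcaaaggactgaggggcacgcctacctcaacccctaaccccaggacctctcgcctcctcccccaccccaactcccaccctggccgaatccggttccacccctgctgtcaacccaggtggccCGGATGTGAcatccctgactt
MAGEA9 (chrX:149781680-149781929, plus strand): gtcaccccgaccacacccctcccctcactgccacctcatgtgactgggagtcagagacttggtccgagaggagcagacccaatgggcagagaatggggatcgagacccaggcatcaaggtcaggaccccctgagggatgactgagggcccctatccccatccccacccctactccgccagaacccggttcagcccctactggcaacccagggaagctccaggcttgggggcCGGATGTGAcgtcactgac
This run has 9 bases, CGGATGTGA, and begins 13, 21 and 19 bases before the start in the 3 windows shown. Searched on both strands, it was present in 67 of 35116 promoter windows of the same length (0.191%) and in 14 of 19 windows of numbered MAGEA genes. Both counts include the 7 windows that define the run. It was found by comparing these sequences, it is a description of related genes, and the arrays hold no measurement of binding or methylation at it.

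Other higher genes came from several cellular functions. BTAF1, an ATPase that takes TATA-binding protein off DNA, read 9.20, 9.47 and 9.31 in PKHD1-/- organoids, against 8.77, 8.80 and 8.13 in PKHD1+/- organoids. It did not overlap between genotypes, and its difference was 0.76 ± 0.17, with 1.18 in the forskolin pair. DCAF7, a WD-repeat protein that binds the kinase DYRK1A, differed by 0.36, 0.61 and 0.92. MXI1, which competes with MYC for its partner MAX, differed by 0.66, 0.49 and 0.34. The membrane proteins ITM2A and TMEM47, both encoded on the X chromosome, each drew most of their difference from 1 culture: ITM2A differed by 1.45, 0.37 and 0.45, and TMEM47 by 0.48, 0.34 and 1.80. With SMPX and the 3 MAGEA genes, 6 of the 20 higher named genes lie on the X chromosome, yet over all 624 X-linked genes tested 13.8% were higher and 7.37% lower in all 3 pairs.

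The largest steady difference of either direction was that of GUCY1A1. It encodes the alpha-1 subunit of soluble guanylate cyclase, the enzyme that makes cyclic GMP when nitric oxide binds it. GUCY1A1 read 7.01, 8.77 and 6.69 in PKHD1-/- organoids, against 8.21, 9.77 and 7.69 in PKHD1+/- organoids. Each PKHD1-/- array was at least 1 unit below its pair, and the genotypes overlapped because the static arrays were high in both. The difference was -1.07 ± 0.07. Both probes of the gene were lower in every pair, one by 1.62, 1.26 and 1.41 and the other by 0.78, 0.75 and 0.60. The file values of these 2 probes are brightnesses of different oligonucleotides, and they were averaged. GUCY1B1, which encodes the beta-1 subunit that pairs with it, differed by -0.09, -0.42 and -0.41. Among 21 genes of nitric oxide and cyclic GMP signalling tested, 3 were lower and 3 higher in all 3 pairs. The list's median was -0.03, and the shares of all genes were 9.11% and 11.7%. The higher ones included the natriuretic peptide receptors NPR2 at 0.25, a membrane guanylate cyclase, and NPR3 at 0.18, which clears the peptides.

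IGFBP7, a secreted protein of the insulin-like growth factor binding family, read 12.95, 13.78 and 12.32 in PKHD1-/- organoids, against 14.14, 14.48 and 12.99 in PKHD1+/- organoids. It was lower in PKHD1-/- in each pair, most under flow, and its difference was -0.85 ± 0.14. IGFBP3, the main carrier of these growth factors in blood, differed by -0.28, -0.26 and -0.50. IGF1, one of the growth factors, differed by 0.67, 0.06 and 0.27, and the protease PAPPA2, which frees them from binding proteins, by 0.04, 0.03 and 0.22. Of 25 genes of this axis tested, 5 were lower and 2 higher in all 3 pairs, against 9.11% and 11.7% of all genes.

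Some immediate early genes, which cells transcribe within minutes of a stimulus, were lower in all 3 pairs. FOS, a subunit of the AP-1 transcription factor, differed by -1.93, -0.35 and -0.34 and averaged -0.87 ± 0.40. EGR1, a zinc finger transcription factor, read 9.11, 9.88 and 7.79 in PKHD1-/- organoids, against 10.07, 10.23 and 8.17 in PKHD1+/- organoids. DUSP1, a phosphatase that switches off MAP kinases, read 7.84, 7.98 and 7.46 in PKHD1-/- organoids, against 8.81, 8.39 and 7.88 in PKHD1+/- organoids. All 3 genes were lower in every pair, had their largest difference under flow and overlapped between genotypes. BTG2, an antiproliferative gene, had the same shape at -0.83, -0.24 and -0.21. Of 35 members tested, 8 were lower in all 3 pairs (these 4, KLF6, KLF10, SRF and MCL1) and 2 were higher (ATF3 and ARC), against 9.11% and 11.7% of all genes. The list's median was -0.11, with -0.16 in the flow pair, 0.04 in the static pair and -0.05 in the forskolin pair, and it was between -0.22 and -0.01 in the 10 other settings. In the static pair 21 of the 35 members were higher in PKHD1-/-. Without the flow pair the list's median was -0.0055. CREB1, the factor through which cyclic AMP turns on many of these genes, read 8.01, 7.64 and 7.30 in PKHD1-/- organoids, against 8.37, 8.03 and 7.80 in PKHD1+/- organoids. Its difference of -0.41 ± 0.06 was of like size in all 3 cultures. Among 37 genes of cyclic AMP signalling tested, 6 were higher and 4 lower in all 3 pairs, against 11.7% and 9.11% of all genes. The median of these 37 was 0.02.

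The 250 bases before the start of FOS, EGR1, DUSP1 and BTG2 are shown because these members of the list had the largest smallest differences. Capitals mark the half-site of the cyclic AMP response element, TGACG, on either strand, and the CArG box, to which serum response factor binds.
FOS (chr14:75278578-75278827, plus strand): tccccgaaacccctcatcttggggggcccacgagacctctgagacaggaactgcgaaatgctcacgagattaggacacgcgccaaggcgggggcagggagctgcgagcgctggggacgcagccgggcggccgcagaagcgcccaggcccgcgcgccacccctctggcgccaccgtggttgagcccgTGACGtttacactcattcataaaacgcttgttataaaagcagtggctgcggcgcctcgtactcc
EGR1 (chr5:138465229-138465478, plus strand): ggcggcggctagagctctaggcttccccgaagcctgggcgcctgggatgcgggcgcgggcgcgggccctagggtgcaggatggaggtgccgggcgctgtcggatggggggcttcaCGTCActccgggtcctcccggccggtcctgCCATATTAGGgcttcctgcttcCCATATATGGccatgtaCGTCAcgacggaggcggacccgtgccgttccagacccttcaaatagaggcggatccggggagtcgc
DUSP1 (chr5:172771196-172771445, minus strand): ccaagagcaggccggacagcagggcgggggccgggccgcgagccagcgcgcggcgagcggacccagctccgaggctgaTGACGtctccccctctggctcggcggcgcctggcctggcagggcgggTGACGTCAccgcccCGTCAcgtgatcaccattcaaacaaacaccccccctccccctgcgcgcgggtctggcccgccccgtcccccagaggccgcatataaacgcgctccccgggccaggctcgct
BTG2 (chr1:203305269-203305518, plus strand): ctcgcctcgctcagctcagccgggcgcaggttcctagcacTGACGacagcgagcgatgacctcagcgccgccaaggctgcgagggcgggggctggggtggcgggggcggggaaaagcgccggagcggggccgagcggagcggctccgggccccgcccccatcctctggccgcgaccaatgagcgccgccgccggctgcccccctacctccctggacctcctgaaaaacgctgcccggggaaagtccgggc
The half-site occurred 1 time in FOS, at -64 from the start, 2 times in EGR1, 4 times in DUSP1 and 1 time in BTG2. In DUSP1, 2 of the 4 overlap as the full palindrome TGACGTCA. EGR1 also held 2 CArG boxes, which overlap no half-site. Of 35116 promoter windows of this length, 21.2% held a half-site, 1.65% the full element and 1.16% a CArG box. The matches describe letters in the window, and binding was not measured.

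Among other transcription factors, FOXC1, a forkhead factor of kidney and vascular mesenchyme, read 9.51, 9.80 and 9.89 in PKHD1-/- organoids, against 10.16, 10.90 and 10.33 in PKHD1+/- organoids. Its levels did not overlap, and the difference was -0.73 ± 0.15. SOX8, a factor of neural crest and testis development, differed by -0.33, -0.42 and -0.51. ZNF91, a zinc finger protein that represses retrotransposons, differed by -0.42, -0.35 and -0.62. HOXD11, which patterns the metanephric kidney together with its paralogues, differed by -0.56, -0.19 and -0.54, and HOXD10 averaged -0.21. HOXB6 went the other way, at 0.26, 0.09 and 0.06. Over 37 HOX genes tested, 4 were lower and 4 higher in all 3 pairs, against 9.11% and 11.7% of all genes.

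PHACTR2, which binds actin and protein phosphatase 1, had the widest gap between genotypes, 0.41 between the nearest arrays, of the lower genes above background on all 3 PKHD1+/- arrays. It read 7.68, 7.65 and 7.54 in PKHD1-/- organoids, against 8.16, 8.54 and 8.09 in PKHD1+/- organoids, a difference of -0.64 ± 0.11. LIMS1, the adaptor PINCH1 at integrin adhesions, differed by -0.35, -0.45 and -0.44 without overlap, and both of its probes were lower in every pair. CLDN11, a claudin of tight junctions, differed by -0.40, -0.56 and -0.55. PCDHB5, a clustered protocadherin, differed by -0.62, -0.40 and -0.33. Among 31 claudins and epithelial junction genes tested, 5 were lower and 1 higher in all 3 pairs, against 9.11% and 11.7% of all genes. DSP and PKP2, both of desmosomes, lay at -0.15 and -0.13 without overlap. Both were dim, at 6.06 or less on every array, and PKP2 lay above background on 5 of the 6. CRB3, which sets epithelial polarity, lay at -0.13. MATN2, a matrilin of the extracellular matrix, averaged -0.62, but its probes differed: one stood at -0.03, -0.80 and -1.47 and the other at -0.67, -0.08 and -0.65.

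The lower group also held genes of several other functions. SULT1E1, the sulfotransferase that inactivates estrogens, read 10.21, 10.41 and 8.02 in PKHD1-/- organoids, against 10.99, 10.82 and 8.77 in PKHD1+/- organoids. GLIPR1, a member of a family of cysteine-rich secretory proteins, differed by -0.60, -0.45 and -0.57. B2M, the small invariant chain of class I antigen-presenting complexes, read 11.79, 12.62 and 11.75 in PKHD1-/- organoids, against 12.34, 13.02 and 12.35 in PKHD1+/- organoids. Its difference was -0.51 ± 0.07, in a range from -0.39 to -0.60 over the 3 cultures. The interferon-response genes IFIT3 and IRF1 stood at -0.29 and -0.13, and IFIT1 at 0.52. Of 29 genes of class I presentation and interferon response tested, 7 were lower and 5 higher in all 3 pairs. Among all genes tested, 9.11% were lower and 11.7% higher. EMCN, a sialomucin of endothelial cells, differed by -0.42, -0.58 and -0.33. Of 22 endothelial markers tested, however, 6 were higher in all 3 pairs and EMCN was the 1 lower, again against 11.7% and 9.11%. The higher ones included EGFL7 at 0.18, SOX18 at 0.08 and ROBO4 at 0.06, the last above background on 5 of the 6 arrays.

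Both WNT and BMP regulators appeared on either side. KREMEN2, a membrane receptor for the WNT antagonists of the DKK family, read 8.55, 7.85 and 10.51 in PKHD1-/- organoids, against 7.97, 7.13 and 9.93 in PKHD1+/- organoids, a difference of 0.62 ± 0.06 that was nearly equal in the 3 cultures. SHISA3, known in Xenopus and mammals as a WNT antagonist, differed by -0.62, -0.46 and -1.59. FRZB, a secreted WNT antagonist, stood at 0.37, and the WNT receptor FZD1 at -0.45. Over 45 WNT genes tested, 8 were higher and 6 lower in all 3 pairs, and over 27 BMP genes 4 were higher and 7 lower. Of all genes tested, 11.7% were higher and 9.11% lower. FST, which binds activins and BMPs, differed by 0.07, 1.45 and 0.30. The BMP target ID2 stood at -0.37, the receptor BMPR2 at -0.24 and the signal transducer SMAD9 at -0.18, the last 2 without overlap.

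Cell cycle genes had 12 of 36 members lower and 3 higher in all 3 pairs, against 9.11% and 11.7% of all genes. TOP2A, which untangles DNA in dividing cells, differed by -0.35, -0.38 and -0.25, and both of its probes were lower in every pair. MCM4, a subunit of the replicative helicase, differed by -0.43, -0.12 and -0.31 without overlap, and the mitotic checkpoint kinase BUB1 by -0.18, -0.20 and -0.51. NUSAP1, which bundles spindle microtubules, went the other way at 0.23, 0.28 and 0.28. The list's median was -0.06, and between -0.14 and -0.01 in the 10 other settings.

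**Figure D3:**
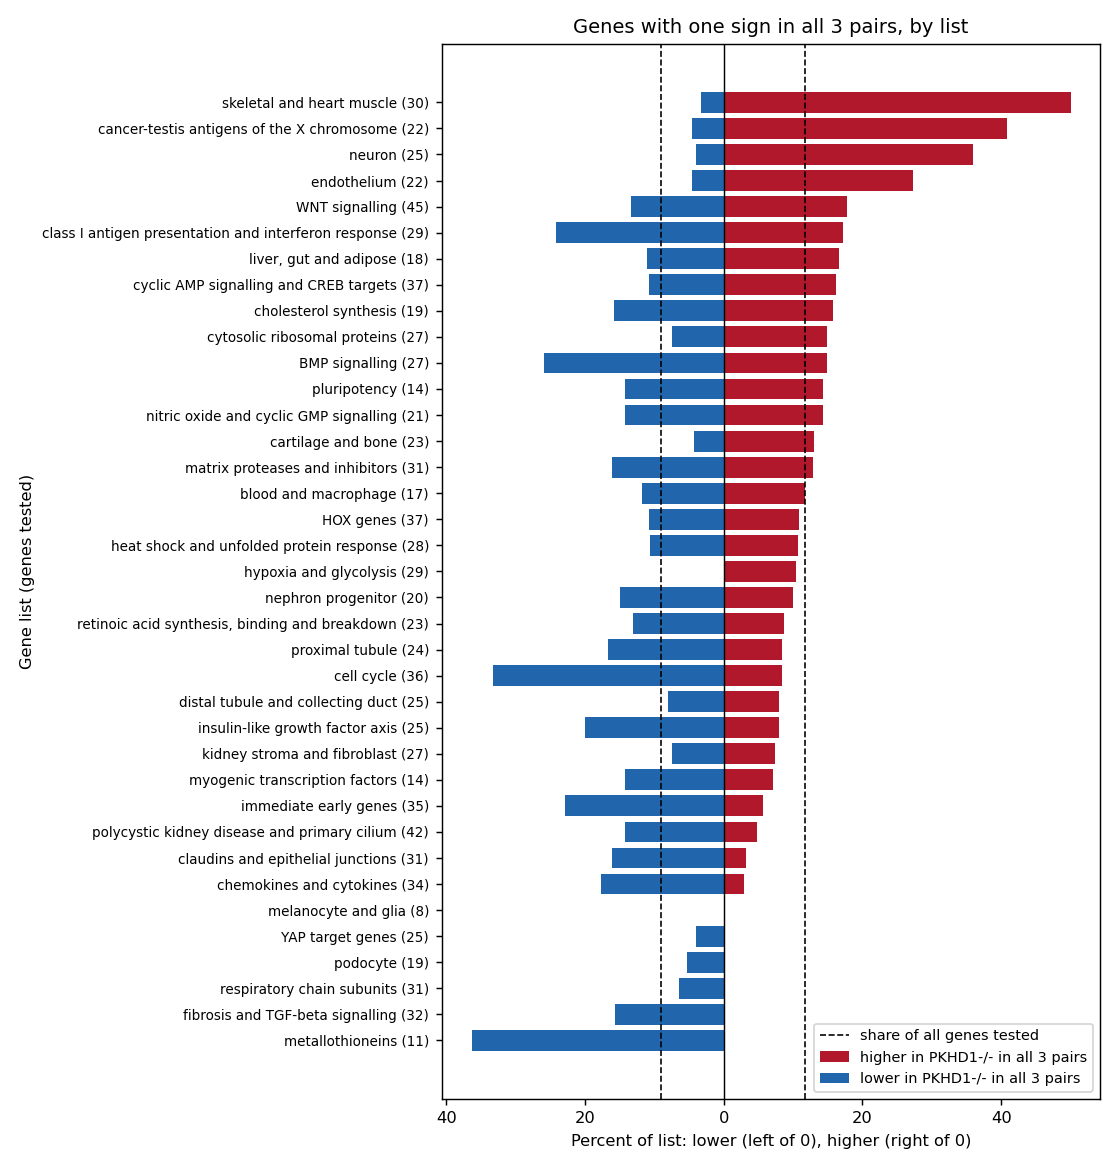
Percent of the genes tested in each of 37 lists (rows, with the number tested) that were higher in PKHD1-/- in all 3 pairs (right of 0) or lower (left of 0), with dashed lines at the 11.7% and 9.11% of all genes tested. Muscle, cancer-testis antigen and neuron lists extend farthest to the right, and metallothionein and cell cycle lists farthest to the left.

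Among genes of polycystic kidney disease and the primary cilium, 42 were tested, with a median of -0.03. Of these, 6 were lower and 2 higher in all 3 pairs, against 9.11% and 11.7% of all genes. TMEM67, a protein of the ciliary transition zone mutated in Meckel syndrome, differed by -0.12, -0.20 and -0.20. AHI1, of the transition zone and mutated in Joubert syndrome, differed by -0.07, -0.20 and -0.42 without overlap. CYS1, the ciliary protein cystin lost in the cpk mouse, differed by -0.05, -0.56 and -0.28, and DNAJB11, a chaperone of polycystin-1, averaged -0.19. These differences were under 0.6 in every pair.

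Of the fibrosis and TGF-beta genes, 5 of 32 were lower in all 3 pairs and 0 higher, against 9.11% and 11.7% of all genes. ACTA2, smooth muscle actin, differed by -1.59, -0.26 and -0.06, so that its mean of -0.64 came mostly from the flow pair. SMAD7, the inhibitor that TGF-beta induces, differed by -0.11, -0.22 and -0.23. The list's median was -0.34 in the flow pair, 0.11 in the static pair and -0.10 in the forskolin pair. Of 11 metallothioneins tested, which bind zinc and copper, 4 were lower in all 3 pairs and 0 higher, against these shares of all genes. MT1G differed by -0.70, -2.19 and -0.32 and MT2A by -0.13, -1.64 and -0.05, and members of this family share long stretches of sequence, so the array may not separate them. Their median was -1.52 in the static pair, against 0.08 in the forskolin pair.

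Neuron markers had 9 of 25 members higher and 1 lower in all 3 pairs, against 11.7% and 9.11% of all genes. NEFL, a neurofilament, differed by 0.38, 0.17 and 0.15, and the neuronal RNA-binding gene ELAVL4 by 0.69, 0.08 and 0.09. NEUROG2, which commits cells to a neuronal fate, averaged 0.14 without overlap, but it was dim, at 6.3 or less on every array. The named members are all higher ones, and of the 25 mean differences 17 were positive and 8 negative. The list's median was 0.05 and stayed positive under all 10 other settings. These settings say little about so small a median, since 75th percentile scaling alone moved the median of all genes to 0.09. The settings that leave out a pair reuse pairs in which the list's median was already positive (0.12, 0.08 and 0.01). Summed over the list, linear intensity was 5691, 3781 and 4518 in PKHD1-/- organoids, against 5130, 3197 and 3733 in PKHD1+/- organoids, higher in PKHD1-/- in each pair with overlapping ranges. Its part in the other results was not tested.

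Markers of kidney cells were counted against the 11.7% of all genes that were higher and the 9.11% that were lower in all 3 pairs. In podocytes 0 of 19 genes were higher and 1 lower in all 3 pairs, in the proximal tubule 2 were higher and 4 lower of 24, in the distal tubule and collecting duct 2 and 2 of 25, and in nephron progenitors 2 and 3 of 20. Named examples were SLC7A9, an amino acid transporter of the proximal tubule, at 0.37, the brush border peptidase ANPEP at -0.26, and the nephron transcription factor PAX2 at -0.16. SYNPO, an actin-binding protein of podocyte foot processes, stood at -0.08. Hypoxia and glycolysis genes had 3 of 29 members higher (10.3%) and 0 lower, against 11.7% and 9.11% of all genes, and their median was 0.51 in the flow pair, 0.07 in the static pair and -0.14 in the forskolin pair. GPI and PGK1, both enzymes of glycolysis, differed by 0.60, 0.46 and 0.22 and by 0.26, 0.32 and 0.21 without overlap, and CA9, a carbonic anhydrase induced in hypoxia, averaged 0.17.

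The 3 pairs share no arrays, and over all genes tested their differences had little in common. Across the 16364 genes, which are not independent replicates, the flow and static differences correlated at r = -0.35, the flow and forskolin differences at -0.06 and the static and forskolin differences at 0.08. Signs were the same for 38.3%, 48.5% and 54.8% of genes. The genes with one sign in 3 pairs are thus drawn from a set in which the flow and static pairs mostly opposed each other. The forskolin pair had the largest difference of the 3 for 1509 of the 3406 one-sign genes, against 968 for the flow pair and 929 for the static pair.

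**Figure D4:**
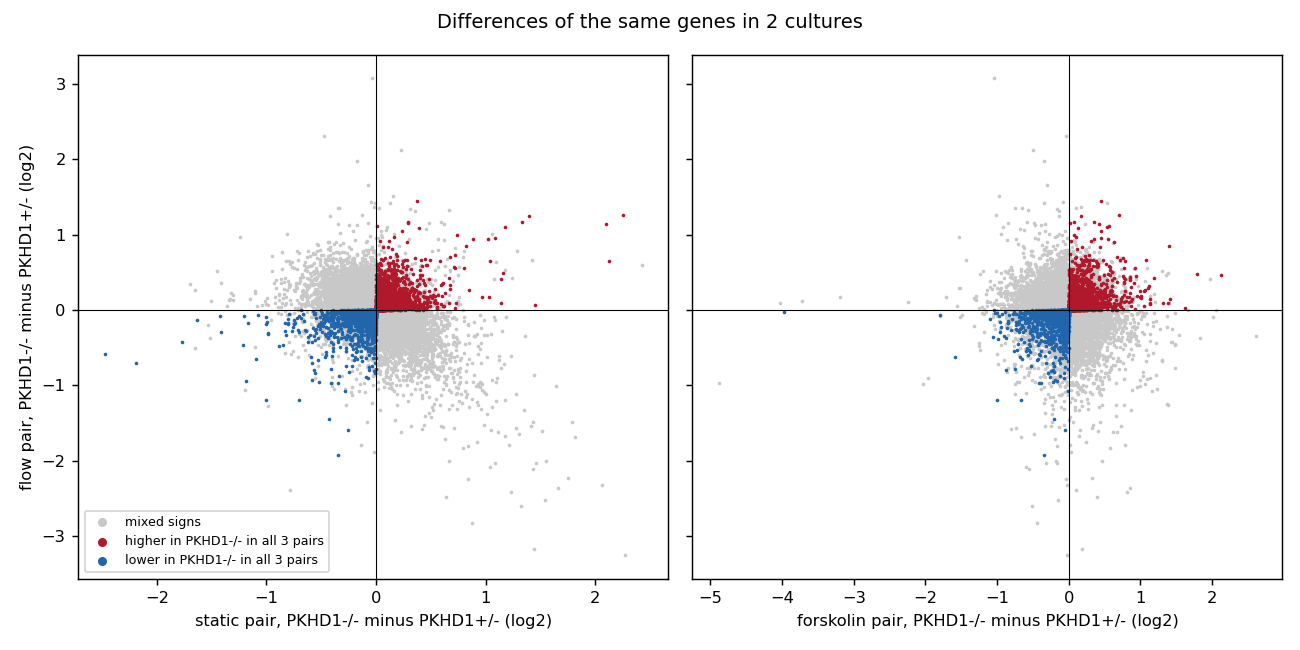
Difference between PKHD1-/- and PKHD1+/- organoids in the flow pair (y axis, log2) against the static pair (left, x axis) and the forskolin pair (right, x axis), 1 point per gene. The widest spread in the left panel runs from upper left to lower right (r = -0.35), and the one-sign genes fill the other quadrants near 0.

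One-sign genes were somewhat more frequent among dim genes. With genes cut into 4 equal groups by mean level, from dimmest to brightest, 13.2%, 12.5%, 11.3% and 9.80% were higher in all 3 pairs, and 10.8%, 9.56%, 8.75% and 7.31% were lower. The median size of their mean difference was 0.04, 0.10, 0.17 and 0.23 in the same order, and 9 of the 11 genes past 0.5 in every pair were in the brightest group. The offset added in background correction shrinks differences of dim genes. Just inside the one-sign rule, DLK1, a Notch-related protein, differed by 1.11, 0.004 and 0.56, and the translation factor EIF4A2 by -0.02, -0.44 and -3.98. Just outside it, ANKRD37, an ankyrin repeat protein, differed by 1.43, -0.01 and 0.53, and the chemokine CXCL12 by -0.48, 0.0009 and -1.26. These sit on either side of 0 in 1 pair by amounts far below the differences in the other pairs.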

How the data were processed

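Per the file headers, the deposited intensity is the median of a spot's pixels, linear and without background subtraction, for 27456 spots per array, 2680 of them blank. The authors' deposited value table of intensity was used as an alternative. It is a straight line of the spot medians with its 0 at the trimmed blank mean. Background was corrected with limma 3.58.1 (R 4.3.3) by normexp, adding 50 to each value, and log2 intensities were quantile normalized over the 6 arrays. Of 24460 probes, 20236 carried 1 gene symbol and 4224 none. Symbols were updated through RefSeq (GRCh38.p14) for 2899, and 205 probes marked not good on at least 1 array were dropped. Values were averaged over a gene's probes, and 16364 of 17446 genes lay above background, the trimmed blank mean plus 2 SD, on at least 2 arrays. The number of arrays limits the precision.

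Genotype was tested with limma in the model culture plus genotype, 2-sided, with Benjamini-Hochberg adjustment. It leaves 2 residual degrees of freedom, to which the moderated variance adds 1.54. The p-values and SEs measure only the spread that culture and genotype leave. That spread mixes technical noise with any change of the genotype difference between cultures, which 1 array per group cannot tell apart. The 3 pairs are different cultures of the same 2 clones, not repeats of one measurement. One-sign counts and gene lists carry no test. Named were PKHD1 and, in each direction, the 20 genes above background whose smallest paired difference was largest, up to 4 members of a list by that measure, and genes nearest 0. CTAG2, TNNI1, KLF6, KLF10, SRF, MCL1, ATF3 and ARC were named after their values were seen, as were the 8 genes plotted. The members and lists were chosen with earlier results of these data known. Alternatives were no background correction, an offset of 16, 75th percentile scaling, the value table with a pseudocount of 1, other filters, the brightest probe, trend and robust settings, no culture block, and leaving out pairs. XIST and Y-linked genes are not reported.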

Additional observations from a re-analysis of the deposited data

How the results depend on the processing

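Limma called 0 genes for genotype under every setting run, and the unadjusted p was under 0.05 for 313 to 1110 genes in the settings other than trend and robust and no culture block, for which it was not counted. No background correction, the filters, the brightest probe and the value table kept the counts of one-sign genes within 1.5 times. Scaling to the 75th percentile gave 5989 higher and 541 lower genes, of which 1710 and 412 were also among those of the quantile setting. The counts of genes past 0.5 in all 3 pairs were 38 higher and 26 lower in the value table, where no offset is added, 4 lower with an offset of 16 and 5 lower with 75th percentile scaling. Leaving out either array of a pair removes the pair and leaves a rule over 2 pairs. The counts then ran from 3357 to 4465 higher and from 2903 to 4499 lower, and past 0.5 from 31 to 77 higher and from 24 to 55 lower. The flow and static pairs, which share a date, gave 3357 higher and 2903 lower genes, 41 and 24 of them past 0.5. The PKHD1 difference turned to 0.10 with the brightest probe and ran from -0.0906 to 0.0266 with 1 pair left out, turning positive without the static pair. The cause was not tested. Signs of list medians were read against 0, though 75th percentile scaling moved the median of all genes to 0.09. Of the 37 list medians, 12 kept their sign in all 10 alternatives. The medians of the fibrosis and endothelium lists did not, and ranged from -0.27 to 0.006 and from -0.006 to 0.13. Low brightness limits dim genes, since the offset shrinks their differences, and the forskolin arrays were the dimmest. No paired analysis by replicate number was possible because the labels number no replicates, and the pairing is by culture.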

Other observations

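Probes that carry no gene symbol were not part of any comparison. Of 3652 such probes above background on at least 2 arrays, 597 were higher in PKHD1-/- in all 3 pairs (16.3%) and 239 lower (6.54%), and 0 differed by over 0.5 in every pair. By position, genes tested that neighbour each other on a chromosome of GRCh38.p14 formed 3 runs of at least 4 with one sign. Over all genes tested, 11.7% were higher and 9.11% lower in all 3 pairs. Whether these shares alone would give as many runs was not tested, so the runs are not read as regional differences. On chromosome 11 the 5 genes PUS3, DDX25, CDON, RPUSD4 and FAM118B were higher, with a median of 0.13. On chromosome 9 the 4 genes SIT1, CCDC107, ARHGEF39 and CA9 were higher, with a median of 0.22, and the 4 genes GAPVD1, MAPKAP1, PBX3 and MVB12B were lower, with a median of -0.17. All were named after their values were seen. Of the 20 lower named genes, 5 lie on chromosome 4 (GUCY1A1, IGFBP7, SHISA3, SULT1E1 and EMCN), where 12.5% of 607 genes tested were lower and 8.73% higher in all 3 pairs. Medians of all chromosomes lay between -0.01 and 0.01.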
